A study of Caenorhabditis elegans with 11 samples.

Results

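mir-355 (cel-mir-355 in the count table) is 1 of the 250 microRNA (miRNA) hairpins counted in small RNA libraries of ageing Caenorhabditis elegans. It was chosen by its measured levels over the ages, which rose early, and was found in the table by its name. The libraries came from total RNA of whole hermaphrodite worms of N2, the standard wild-type laboratory strain, and no mutation, transgene or treatment is named in the labels for any group. The groups are worms aged 1 day (3 libraries), 5 days (3 libraries), 10 days (3 libraries) and 20 days (2 libraries), 11 libraries in all. No source used here gives the stage from which days were counted or the number of worms in a library. Since the levels of mir-355 over these ages are what it was chosen for, its values and differences are given as a description, with no p-value.

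A miRNA is cut from a hairpin-shaped precursor, and 1 of its arms is loaded into an Argonaute protein, where the seed near its 5′ end pairs with messenger RNAs and lowers their output. In C. elegans, mir-355 has been reported to act in innate immunity, between p38 MAP kinase signalling and insulin signalling, with the insulin receptor gene daf-2 as a reported target. Insulin signalling through daf-2 is best known in the worm for its control of lifespan and stress resistance.

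In the Ensembl annotation of the WBcel235 build, the mir-355 hairpin is 110 bases long and lies on the minus strand of chromosome II, from 11833536 to 11833645. The annotated 5′ arm covers 21 bases, from 11833603 to 11833623, and the 3′ arm 22 bases, from 11833564 to 11833585. The deposited table gives 1 count per hairpin, so the values below cannot be assigned to either arm. No annotated gene overlapped the hairpin (0 genes), which places it between genes. The nearest gene on the same strand was clec-144, named as a C-type lectin gene, whose near end lies 960 bases downstream. On the other side, the protein-coding gene T27D12.6 lies on the opposite strand, 1862 bases away. 1 other hairpin, mir-8188, lies within 10000 bases, at a distance of 6798 bases on the same strand, and had a summed count of 0 over all libraries. The nearest hairpin with any count was mir-5594, 31484 bases away and on the same strand (11865130 to 11865187).

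Library totals ran from 955506 to 1800586 counts, and 99.99% of them fell on the 145 hairpins that passed the filter on low counts. At these totals 1 count was worth 0.555 to 1.05 CPM, the unit of counts scaled to a common library size. Levels are given as CPM scaled by TMM, a factor that adjusts each library total for shifts in composition. They are shares of the miRNA counts of a library, and in whole worms fewer cells of a type and less RNA per cell cannot be told apart. Nothing in the labels says that the libraries of an age came from separate cultures, so spreads and p-values measure the variation between these libraries, which may be technical.

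mir-355 was a hairpin of low to middle abundance that was already well above its youngest level at 5 days, was at its highest at 10 days and stood between those levels at 20 days. At 1 day the libraries had 90, 93 and 112 counts of mir-355, or 56.9, 54.7 and 59.7 CPM. At 5 days they had 359, 264 and 296 counts, or 218, 207 and 163 CPM. At 10 days there were 281, 476 and 405 counts, or 311, 309 and 301 CPM. Every 10-day library was thus above every 5-day library, and every 5-day library above every 1-day library. The 20-day libraries had 405 and 228 counts, or 259 and 247 CPM, and lay above the 5-day and below the 10-day libraries.

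The mean level was 57.1 ± 2.53 CPM at 1 day (SD, n = 3), 196 ± 29.1 CPM at 5 days (n = 3), 307 ± 5.21 CPM at 10 days (n = 3) and 253 ± 8.04 CPM at 20 days (n = 2). From high to low, the order of the ages was therefore 10, 20, 5 and 1 days. This order was the same with TMM, with 3 other scalings and with each of the 11 libraries left out in turn, 15 settings in all. The gap between 20 and 10 days was the least secure neighbour pair. In 11 of the 15 settings the 20-day libraries lay below every 10-day library. They overlapped without replicate 2 of the 1-day group, without replicate 1 of the 10-day group, and without either 20-day library.

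**Figure D1:**
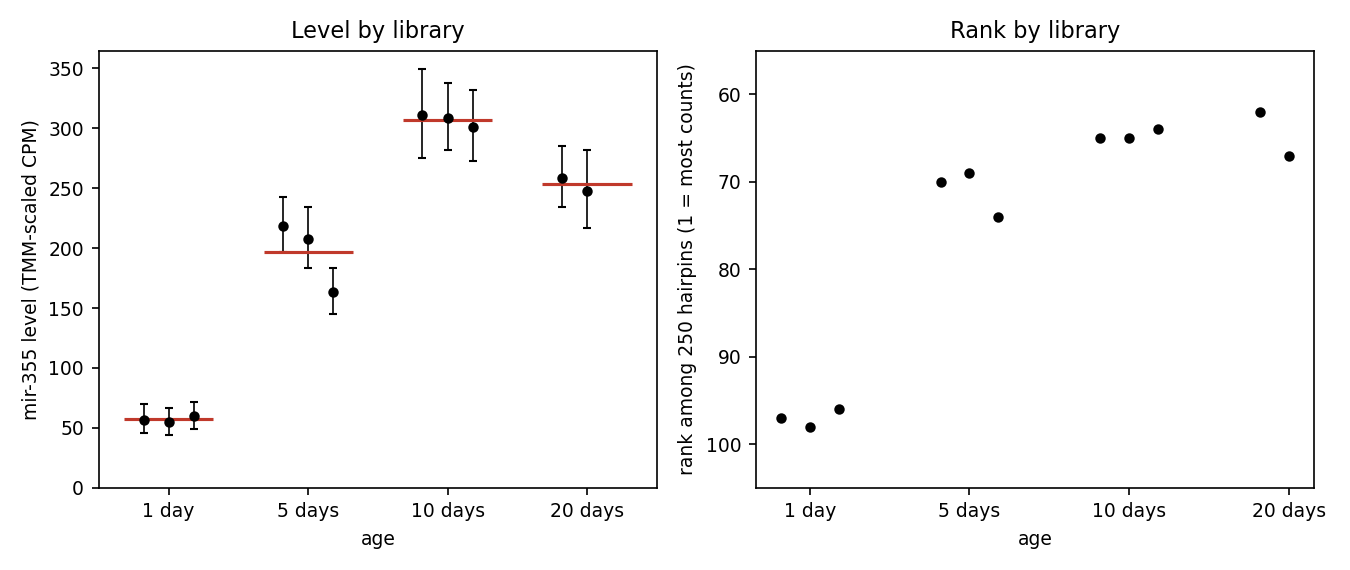
Left, level of mir-355 in each library as TMM-scaled CPM, with the exact 95% Poisson interval of its count (bars, counting error only) and the mean of each age (red line); right, its rank by count among the 250 hairpins, with rank 1 at the top. The 1-day libraries sit near 57.1 CPM and at ranks 96 to 98, and all libraries of later ages lie at or above 163 CPM and at ranks 62 to 74.

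Counting error was small beside the rise of mir-355 from 1 day, and of the same order as its difference between 10 and 20 days. The exact 95% Poisson intervals of the 1-day libraries spanned 44.1 to 71.9 CPM between them, and the lowest interval at 5 days, that of replicate 3, ran from 145 to 183 CPM. At 10 days the intervals spanned 272 to 349 CPM between them and at 20 days 216 to 285 CPM, so that they overlapped. At 10 days the libraries differed by a coefficient of variation of 1.70%, less than the 5.08% that counting alone would give. At 1 day the observed 4.43% was likewise under the counting value of 10.1%. At 5 days the variation was 14.8% against a counting value of 5.71%, and replicate 3 was the low library. On the log2 scale mir-355 in that library lay at -0.38 from the mean of the other 5-day libraries, where the median of all tested hairpins lay at -0.20. The pooled SD of log2 CPM within ages was 0.126 for mir-355 and 0.185 for the median tested hairpin, and 26 of 145 hairpins had a smaller one.

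Among all hairpins, mir-355 moved from below the middle of the tested hairpins to above it. At 1 day it ranked 96 to 98 among 250 hairpins by count, and its mean was 0.36 times the median level of the tested hairpins (159 CPM). At 5 days it ranked 69 to 74 and stood at 1.11 times the median (177 CPM). At 10 days it ranked 64 or 65 and stood at 1.66 times the median, and at 20 days the ranks were 62 and 67 and the ratio 1.41. Over the 4 age means it averaged 203 CPM, rank 70 of 145. The hairpins just above it in that ranking were mir-79, a relative of the miR-9 family that acts in the epidermis, at 229 CPM, mir-785 at 249 CPM and mir-243, which directs small interfering RNA production through the Argonaute RDE-1, at 253 CPM. Just below it were mir-793 of the let-7 seed family at 202 CPM, mir-790 at 191 CPM and mir-87 at 174 CPM. These neighbours in level had flatter profiles. Their log2 differences between 1 and 20 days ran from -0.25 for mir-79 to 0.15 for mir-790. Between 1 and 10 days they ran more widely, from -0.64 for mir-793 to 0.49 for mir-79.

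The size of the early step was then set beside the later ones. From 1 to 5 days the level of mir-355 differed by 1.78 ± 0.14 on the log2 scale (SE from the edgeR fit to all libraries), or 3.43-fold. The libraries of these ages did not overlap, as was so, in the upward direction, for 22.1% of the 145 tested hairpins. From 5 to 10 days the log2 difference was 0.65 ± 0.12, or 1.56-fold, again with no overlap, against 31.7% of hairpins that were higher with no overlap. From 10 to 20 days it was -0.28 ± 0.14, so the 10-day level was 1.21-fold higher, and 40.0% of hairpins were lower with no overlap. The median of all tested hairpins was -0.0024 for the first of these steps, 0.19 for the step from 5 to 10 days and -0.088 for the last. Relative to these medians the 3 steps of mir-355 were 1.78, 0.46 and -0.19.

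Over the longer spans, mir-355 differed by 2.42 ± 0.14 on the log2 scale between 1 and 10 days (5.36-fold) and by 2.15 ± 0.15 between 1 and 20 days (4.43-fold). For each of these spans the groups did not overlap, as was so in the upward direction for 38.6% of tested hairpins. Between 5 and 20 days the difference was 0.37 ± 0.14 (1.29-fold), with no overlap, where 37.9% of hairpins were higher with no overlap. Among all 145 tested hairpins mir-355 had the rise of rank 5 at 5 days, rank 2 at 10 days and rank 12 at 20 days. The hairpins above it at 5 days were mir-8201 (2.22), mir-1832a (2.14) and mir-5594 (2.04), all under 50 CPM, and mir-239a. Among the 98 hairpins that averaged 50 CPM or more, 1 had a larger rise than mir-355 at 5 days, mir-239a (1.89), a miRNA reported to shorten life and to lower stress resistance. At 10 days it was mir-2208a (2.68) that rose more than mir-355, and mir-239a came next (2.37). The mean of mir-2208a, 51.9 CPM, passed the limit only through its 20-day level of 157 CPM, and at 1 day it stood at 4.97 CPM. At 20 days mir-355 stood at place 7 of the 98, behind hairpins led by mir-2208a (4.94), mir-239b (4.51) and mir-1018 (3.41).

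**Figure D2:**
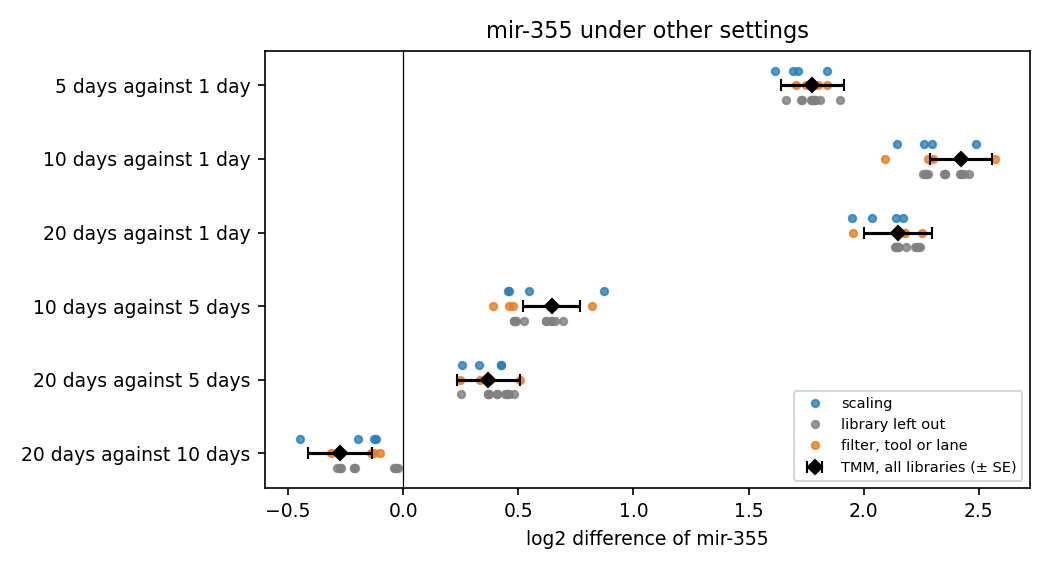
Log2 difference of mir-355 for each pair of ages. Diamonds with bars are the TMM values with their SE, and points are the values with other library scalings (blue), with another filter or tool or lane in the model (orange) and with 1 library left out (grey). All points of the 3 comparisons with 1 day lie above 1.6, and those of 20 against 10 days lie between -0.45 and -0.023.

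The scaling of the libraries moved the later steps of mir-355 more than the early one, in proportion to its size. The 5- against 1-day difference was 1.61 with upper quartiles, 1.69 with total counts and 1.84 with RLE factors. The 10- against 5-day difference was 0.87, 0.45 and 0.46 in the same order, and the 20- against 10-day difference was -0.45, -0.20 and -0.13. The median of all hairpins moved with them, by up to 0.28 on the log2 scale (total counts, 10 against 1 day). A scaling factor shifts every hairpin of a library alike, so the distance of mir-355 from that median is nearly fixed by construction. Without replicate 2 of the 1-day group the 20- against 10-day difference was -0.033, without replicate 1 of the 10-day group it was -0.040, and without replicate 1 or 2 of the 20-day group it was -0.023 or -0.036. In these settings the difference was smaller than the SE of 0.14 from the fit to all libraries.

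The number at the end of each library's description, taken here as a sequencing lane, was shared by 4 pairs of libraries of different ages. In lane 3, mir-355 stood at 59.7 CPM in a 1-day and 218 CPM in a 5-day library, a 3.66-fold difference. In lane 1 it stood at 56.9 CPM at 1 day and 247 CPM at 20 days, or 4.35-fold. In lane 5 the 5- and 10-day libraries had 163 and 311 CPM, or 1.90-fold, and the 5-day library was the low one described above. In lane 7 the 10- and 20-day libraries had 301 and 259 CPM, a log2 difference of -0.22. Each difference within a lane had the direction of the difference between the groups. Since the libraries of these ages did not overlap, any pair of them would have had it, so this is no separate check of lane.

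The shape of the rise was described by the part of the 1- to 20-day log2 difference that was already present at 5 days. For mir-355 this part was 82.8%, and 77.6% to 88.3% with any 1 library left out. In CPM, 71.0% of the rise was present at 5 days. Of the 27 hairpins of at least 50 CPM that were 2-fold or more higher at 20 than at 1 day, mir-355 had the highest share, followed by mir-239a (70.2%), its seed relative mir-238 (65.6%) and mir-35 of the embryonic mir-35 family (61.4%). The median share was 11.8%. The 27 include mir-2208a and mir-1018, which averaged 50 CPM or more only through their 20-day levels. mir-355 stayed first in this ranking in all 15 settings of scaling and left-out libraries. The share of mir-355 is raised by its fall from 10 to 20 days, whereas mir-239a and mir-238 were highest at 20 days. From 1 to 10 days the log2 differences were 2.42 for mir-355, 2.37 for mir-239a and 1.18 for mir-238. Set against these, the 5-day part was larger for mir-239a and mir-238 than for mir-355. Under 50 CPM, mir-8201, mir-1832a and mir-5594 had larger shares of the 1- to 20-day difference than mir-355. mir-355 was chosen for an early rise, so its place here describes the selection and is no separate evidence.

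7 hairpins of at least 50 CPM were 2-fold or more higher at 5 than at 1 day, and their later courses parted. mir-75 and mir-77 were back near their 1-day level by 20 days, with log2 differences of 0.074 and 0.050. mir-34, which acts in stress responses, among them that to DNA damage, was higher at each later age, from 871 ± 99.2 CPM at 5 days (SD, n = 3) to 1921 ± 270.1 at 10 days (n = 3) and 3339 ± 507 at 20 days (n = 2). mir-239a, mir-239b and mir-2208a were also over 1.5-fold higher at 20 than at 5 days. Of these, mir-2208a met the limit of 50 CPM only through its 20-day level. It stood at 4.97 CPM at 1 day and 12.5 CPM at 5 days, so its early rise was one at low counts. mir-355 was the 1 hairpin of the 7 whose 20-day level lay within 1.5-fold of its 5-day level. In each of the 15 settings it was the only such hairpin at this abundance, among 4 to 7 early risers. The shape was not particular to it: of the hairpins under 50 CPM, mir-8201 (log2 differences of 2.22 from 1 to 5 and 0.25 from 5 to 20 days), mir-1832a (2.14 and -0.55) and mir-5594 (2.04 and -0.51) also met both limits. mir-238, at 0.91 and 0.48, missed the 2-fold limit narrowly.

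**Figure D3:**
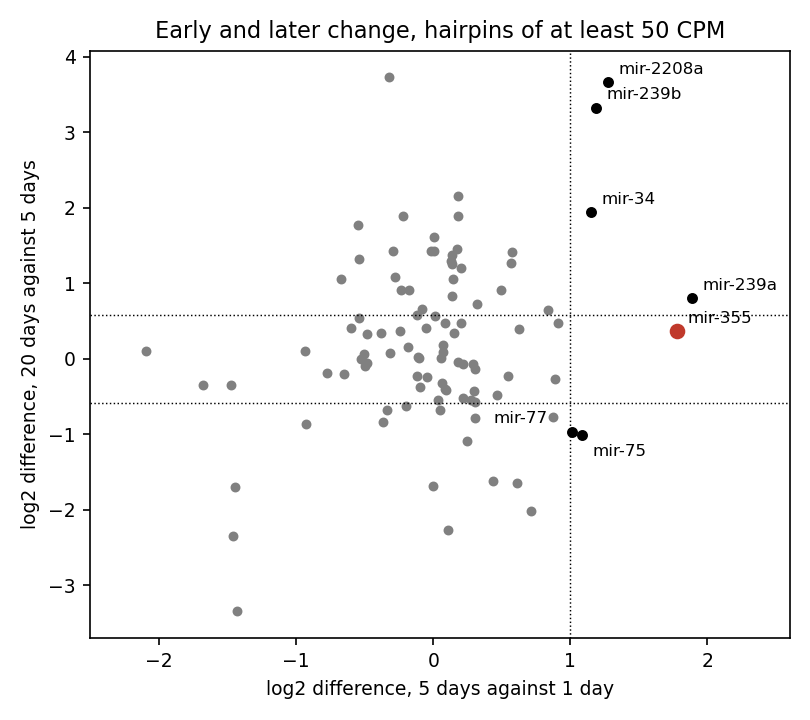
Each point is 1 of the 98 hairpins of at least 50 CPM, with its log2 difference between 1 and 5 days on the x axis and between 5 and 20 days on the y axis. Dotted lines mark a 2-fold early rise and a 1.5-fold later change; mir-355 (red) lies to the right of the vertical line and between the horizontal ones, with mir-34, mir-239a, mir-239b and mir-2208a above and mir-75 and mir-77 below.

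The hairpins whose age profile was most like that of mir-355 were found by the root mean square difference of log2 CPM over the 4 age means, after each profile was centred on its own mean. mir-239a was the nearest, at 0.25, where the median of the other 144 tested hairpins was 0.96 and the farthest, mir-237, stood at 2.61. mir-239a had 415 ± 43.2 CPM at 1 day, 1539 ± 346 at 5 days, 2141 ± 527 at 10 days (SD, n = 3 each) and 2687 ± 348 at 20 days (n = 2). Its mean CPM lay above that of mir-355 at each age, and was highest at 20 and not at 10 days. Its libraries also varied more, from 1620 to 2674 CPM at 10 days alone. In replicate 3 of the 5-day group, mir-239a lay at -0.52 on the log2 scale from the other 5-day libraries, a deviation in the same direction as that of mir-355. This direction was not particular to the pair. In that library the median tested hairpin lay at -0.20 and mir-239b at -0.78, while mir-75 lay at 0.24.

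Next came mir-8201 (0.29), mir-5594 (0.39), mir-784 (0.43) and mir-53 of the mir-51 seed family (0.43). mir-8201 had 3 to 26 counts and mir-5594 0 to 14 counts per library, so their profiles are coarse. mir-5594 is also the nearest hairpin to mir-355 with any count, as given above. Its mean levels were 1.67 ± 1.46, 7.72 ± 2.98 and 9.10 ± 0.779 CPM at 1, 5 and 10 days (n = 3 each) and 4.82 ± 2.22 CPM at 20 days (n = 2). At 20 days its libraries had 10 and 3 counts, and 1 of the 1-day libraries had 0. mir-53 had 317 ± 19.4 CPM at 1 day (n = 3) and 887 ± 80.7 CPM at 20 days (n = 2), a smaller rise than that of mir-355. Among hairpins of at least 50 CPM alone, a restriction chosen after the data were seen, mir-239a and mir-53 were followed by mir-238 (0.44), the intestinal mir-786 (0.49) and the let-7 relative mir-84 (0.49). The least similar hairpins, mir-237 (2.61), the developmental timing miRNA let-7 (2.18) and mir-789-1 (2.14), had lower levels at each successive age.

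**Figure D4:**
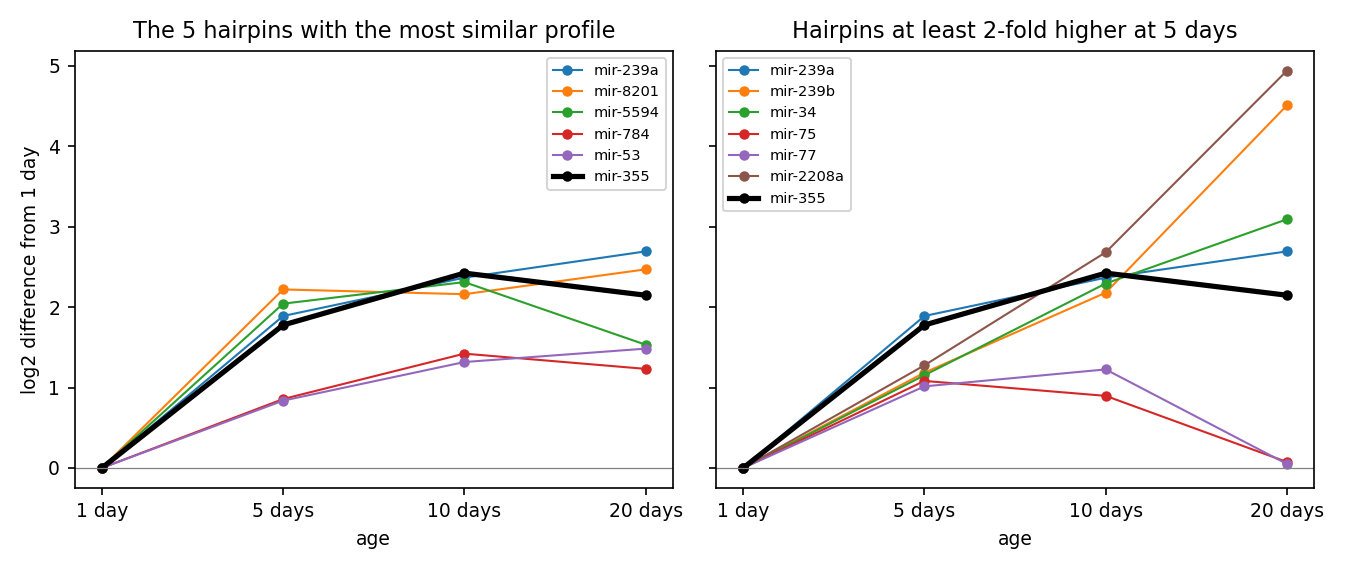
Log2 difference from 1 day at each age for mir-355 (thick black line) beside the 5 hairpins with the most similar profile (left) and the other 6 hairpins that were 2-fold or more higher at 5 days (right). mir-355 and mir-239a run together to 10 days and stand at 2.15 and 2.69 at 20 days, while mir-239b and mir-2208a reach over 4.5 and mir-75 and mir-77 return to near 0.

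mir-355 was set beside other miRNAs reported in worm immunity, a list of 9 with let-7, mir-48, mir-84, mir-241, mir-67, mir-70, mir-233, mir-251 and mir-252. At 5 against 1 day, 2 of the 9 were higher (mir-48 and mir-84) and 3 lower by edgeR's quasi-likelihood test at an adjusted p under 0.05. Over all hairpins 21.4% were higher and 26.2% lower, 31 against 38, a split that was 21 against 46 with upper-quartile scaling. The list's median log2 difference was 0.11, where mir-355, which was chosen for its rise, stood at 1.78. Both rises were lost with upper-quartile scaling; that of mir-48 was also lost when the first 1-day or the first 5-day replicate was left out, and that of mir-84 when the third 1-day replicate was. The falls were those of let-7 (-1.46), mir-241 (-1.44) and mir-67 (-0.72), and mir-67 is under 50 CPM. At 10 against 1 day, 5 were higher and 4 lower, with a median of 0.44, where 37.2% of all hairpins were higher and 26.9% lower. The count of higher members stayed at 5 only with upper-quartile scaling, without the third 5-day replicate or without the second 10-day replicate. It was 3 with total counts or lane in the model. It was 2 with a minimum of 50 CPM, without the second 1-day replicate or without the first 10-day replicate. In all other settings it was 4. The call of mir-233 was the one most often lost, as with RLE factors, DESeq2 or no filter. At 20 against 1 day, 4 were higher and 4 lower, with a median of -0.13, against 33.1% and 29.7% of all hairpins. The falls were those of let-7 (-3.81), mir-241 (-3.15), mir-70 (-2.16) and mir-67 (-1.09). The rises were those of mir-84 (1.40), mir-251 (2.21), mir-252 (0.97) and mir-233 (0.67), and mir-251 averaged only 7.33 CPM. Once lane entered the edgeR model, mir-251 did not pass, at a log2 difference of 1.85. That fit had almost as many terms as libraries, so it left little spread to estimate. Without replicate 1 of the 20-day group, mir-233 did not pass in edgeR (adjusted p = 0.0597). The list did not move in 1 direction. None of its members was among the 5 nearest profiles over all tested hairpins, and mir-84 was the fifth nearest at 50 CPM or more.

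The second list held 11 miRNAs reported to affect insulin signalling or lifespan. At 5 against 1 day, 6 of the 11 were higher (mir-34, mir-71, mir-84, mir-238, mir-239a and mir-239b) and let-7 was lower, with a median of 0.44, beside 21.4% of all hairpins higher and 26.2% lower. With upper-quartile or total-count scaling, with a minimum of 50 CPM or without replicate 1 of the 5-day group, 2 were lower. The rises of mir-71 (0.44) and mir-84 were lost with upper-quartile scaling. At 10 against 1 day, 6 were higher and 1 lower, where 37.2% and 26.9% of all hairpins were, and the median was 0.46. With total counts or a minimum of 50 CPM, 4 of the list were lower, and without replicate 2 of the 20-day group 2 were; with total counts the split of all hairpins was 40 higher and 51 lower, against 54 and 39. At 20 against 1 day, 7 were higher and 4 lower (mir-80, mir-71, lin-4 and let-7), with a median of 1.39, beside 33.1% of all hairpins higher and 29.7% lower. The median of all hairpins was -0.0024, 0.15 and -0.027 in these comparisons. mir-355 at 1.78, 2.42 and 2.15 was above the list's median each time. It was chosen for its rise, so this describes the selection and is no separate evidence. At 20 days the list members mir-239b (4.51), mir-34 (3.09) and mir-239a (2.69) rose more than mir-355. mir-71, a miRNA whose loss shortens life, parted from mir-355 late, with a log2 difference of 0.44 at 5 days and -1.18 at 20 days.

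Markers of tissues and of embryos also moved with age in these whole-worm libraries. The mir-35 family, made in oocytes and embryos, summed to 155415 to 205517 CPM at 1 day, 184346 to 210332 CPM at 5 days, 265636 to 294854 CPM at 10 days and 288292 to 318372 CPM at 20 days. 2 of its 8 members were higher at 5 days, 7 at 10 days and 8 at 20 days, each against 1 day, where 21.4%, 37.2% and 33.1% of all hairpins were, and none was at 0 counts. With other scalings, filters, tools or lane in the model, 6 to 8 were higher at 10 and at 20 days. With totals taken without this family, an alternative added after the data were seen, mir-355 differed by 1.72 at 5 days, 2.26 at 10 days and 2.14 at 20 days from 1 day. The intestinal mir-60 ran from 1506 to 1880 CPM at 1 day, 2505 to 3123 CPM at 5 days, 1646 to 2061 CPM at 10 days and 614 to 815 CPM at 20 days. The muscle mir-1 ran from 453 to 580 CPM at 1 day, 414 to 680.4 CPM at 5 days, 359 to 520 CPM at 10 days and 140.0 to 175 CPM at 20 days. The glial mir-228 ran from 72366 to 90836 CPM at 1 day, 67957 to 85990 CPM at 5 days, 71031 to 82686 CPM at 10 days and 122154 to 157292 CPM at 20 days. The neuronal mir-124 and lsy-6 summed to 32.3 to 37.3 CPM at 1 day and 14.6 to 22.8 CPM at 5 days. At 10 days their sum was 20.8 to 25.3 CPM and at 20 days 16.6 to 19.5 CPM, and both averaged under 50 CPM. At 5 against 1 day this sum was lower and mir-60 was higher, each with no overlap. The ranges of mir-1, mir-228 and the mir-35 family sum overlapped between these ages. Of all tested hairpins, 22.1% were higher with no overlap at 5 days. The share of all hairpins that were lower with no overlap at 5 days is not given here. The part of these tissue markers in the level of mir-355 was not tested.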

How the data were processed

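Per the labels' protocols, small RNA libraries were made with the TruSeq small RNA kit. The deposited values are raw read counts per hairpin, not normalized by the authors. The submitters' processing notes name SAMtools 1.3.1-9, BWA 0.7.12-r1039, Trimmomatic 0.36 and CASAVA 1.8.4; no source used here gives the reference, build or counting rule. Samples were grouped by labelled age. In R 4.3.3, hairpins were kept by filterByExpr (minimum count 10, minimum total 15), which left 145 of 250, scaled by TMM and fitted in edgeR 4.0.16 (quasi-likelihood, age as factor, all 11 libraries, so that the 20-day group shares the estimate of spread; prior count 0.125), with p-values adjusted over the 145 hairpins (Benjamini-Hochberg, threshold 0.05). Profiles used log2 CPM with a prior count of 2. Intervals are exact 95% Poisson intervals and, without molecular identifiers, cover counting error only.

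mir-355 and the lists were chosen with earlier results of these data known. Named hairpins were the 5 most and 3 least similar in profile, the 3 next above and below in level, the 3 largest rises against 1 day at 50 CPM or more, hairpins within 10000 bases and list members; the early risers, mir-1832a, and mir-238 and mir-35 for their shares, were named after their values were seen. Alternatives were scaling by RLE, upper quartiles or total counts, a filter at 50 CPM or none, DESeq2 1.42.0, lane as a fixed term and each library left out. Coordinates are 1-based, from Ensembl release 115 (WBcel235). The steps were tested on simulated counts.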

Additional observations from a re-analysis of the deposited data

How the results depend on the processing

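The log2 differences of mir-355 from 1 day were above 0 in all 57 alternatives. It was chosen for its rise, and every later library lay far above every 1-day library. The sign was thus all but fixed in advance, and this is no separate evidence. The share of its rise present at 5 days ran from 77.6% to 88.3% with other scalings or a library left out. With upper-quartile scaling the difference was 1.61 for 5 against 1 day, 0.87 for 10 against 5 days and -0.45 for 20 against 10 days, and the means at 10 and 20 days were 331 and 242 CPM. With RLE factors 10 against 5 days was 0.46, 20 against 10 days -0.13 and the 10-day mean 283 CPM. With total counts 10 against 1 day was 2.15, 20 against 1 day 1.95 and 10 against 5 days 0.45, with means of 62.7, 278 and 242 CPM at 1, 10 and 20 days. Without a filter 10 against 1 day was 2.28, 10 against 5 days 0.48 and 20 against 10 days -0.10; with at least 50 CPM they were 2.09, 0.39 and -0.14, and 20 against 1 day was 1.95. DESeq2 gave 0.46 for 10 against 5 and -0.13 for 20 against 10 days. Lane as a fixed term gave 2.57 for 10 against 1 day, 0.82 for 10 against 5 and 0.51 for 20 against 5 days. That fit had almost as many terms as libraries, so its differences rest on the pairs that shared a lane. Totals without the mir-35 family gave 2.26 for 10 against 1 and -0.12 for 20 against 10 days.

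With 1 library left out, the ranges were 1.66 to 1.90 (5 against 1 day), 2.26 to 2.46 (10 against 1), 2.14 to 2.25 (20 against 1), 0.48 to 0.69 (10 against 5), 0.25 to 0.48 (20 against 5) and -0.29 to -0.023 (20 against 10), and the means ran from 55.6 to 58.9 CPM at 1 day, 185 to 211 at 5 days, 278 to 314 at 10 days and 251 to 279 at 20 days.

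Of all hairpins, 42 were called higher at 10 than 5 days and 12 lower. That was 26 and 28 with RLE, 65 and 9 with upper quartiles, 25 and 29 with total counts, 26 higher without a filter or with DESeq2, 19 with at least 50 CPM, 27 without the mir-35 family and 22 to 46 with a library left out, where the lowest counts were 26 (no second 1-day replicate), 22 (no first 10-day replicate) and 26 (no first, or no second, 20-day replicate). For 20 against 10 days, 29 were higher, 45 without a filter and 26 to 51 with a library left out (51 with no second 1-day and 50 with no first 10-day replicate). For 5 and 10 against 1 day, 31 and 54 were higher, and 20 and 28 with at least 50 CPM, where fewer hairpins were tested. Apart from fewer hairpins or libraries, the cause of these shifts was not tested. Of the 5 nearest profiles, 3 to 5 were kept with a library left out. No paired analysis was possible because the labels give no replicate numbers shared by the ages. The lane number was the 1 block that could be fitted, with the values and the limit given above.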
